A study of Danio rerio with 5 samples.

Results

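The granins and neuropeptides described here are 10 genes of the regulated secretory pathway, *scg2a*, *scg2b*, *scg3*, *chga*, *scg5*, *npy*, *vip*, *galn*, *pcsk1* and *pcsk2*. They were chosen by gene symbol, and all 10 were among the 30647 gene names in the files. Their expression was compared in sorted EGFP+ tumor cells of zebrafish with MYCN-driven neuroblastoma, in 3 *lmo1*-/- libraries and 2 TATA/TATA libraries. One secretogranin II gene, *scg2b*, was 6.97-fold higher in TATA/TATA tumors, whereas the convertase chaperone *scg5* was lower. The other secretogranin II gene, *scg2a*, was called lower on TMM-scaled counts, but the genotypes overlapped in RPKM and the call held under 5 of 14 alternatives. The neuropeptide precursors *npy* and *galn* and the convertase *pcsk2* had almost no reads in either genotype.

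Granins are acidic proteins that neuroendocrine cells pack, with hormones and catecholamines, into dense-core vesicles, where prohormone convertases cut them and other precursors into peptides. In mammals, chromogranin A is a marker of neuroendocrine tumors, and sympathetic neurons and chromaffin cells store neuropeptide Y beside noradrenaline. Neuroblastoma arises from the sympathoadrenal lineage, and in patients it can also make VIP and galanin.

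All 5 libraries came from juvenile fish derived from the AB strain that carried both the dβh:EGFP and dβh:MYCN transgenes, so that the promoter of dopamine β-hydroxylase, an enzyme of catecholamine synthesis, drove the oncogene and the fluorescence used for sorting. The TATA/TATA fish were homozygous for a T allele, knocked in by TALEN editing at the GATA site of *lmo1* intron 1. The knocked-in oligonucleotide also changed TT to CC on the 5' side of the T. The *lmo1*-/- fish were homozygous for a CRISPR-Cas9 deletion in exon 2. Each genotype is a single edited line, and wild-type GATA/GATA tumors are not analysed here, so every difference is TATA/TATA relative to *lmo1*-/-. The labels number the libraries within a genotype but do not say which fish or how many tumors each came from, so the p-values measure the spread between these libraries.

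Between 48144549 and 55782865 reads per library were counted on genes. Levels are given as RPKM, reads per kilobase of exon scaled to the mapped reads of the library. The floor, 3 counts on 1 kb of exon, was 0.0386 to 0.0467 RPKM, and counts up to 3 were not taken as detected. Groups were compared with the edgeR quasi-likelihood test on counts, scaled by the trimmed mean of M values (TMM), which sets the bulk of genes equal between libraries. A gene was called at a Benjamini-Hochberg adjusted p under 0.05 over the 13484 genes that reached 1 RPKM in 2 or more libraries. *lmo1* itself was at 24.6, 21.0 and 41.9 RPKM in *lmo1*-/- libraries and at 13.6 and 12.7 in TATA/TATA libraries, and was lower in the latter (log2 fold change -1.58, edgeR adjusted p = 0.00473). The short deletion leaves most of the *lmo1*-/- transcript to be counted, so this level does not check the genotype. Transcripts of ribosomal protein genes took 33.9% to 41.7% of counts in *lmo1*-/- and 20.8% to 21.2% in TATA/TATA libraries. The TMM factors were 0.766 to 0.963 and 1.252 to 1.277, and a fold change in TMM-scaled counts generally lies below the fold change in RPKM for the same gene.

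*scg2a* and *scg3* lay between 80.4 and 263 RPKM in every library, above at least 96.5% of tested genes by their genotype means. *chga*, *pcsk1* and *scg2b* lay between 1.28 and 37.4 RPKM, *scg5* between 0.981 and 2.09, and the remaining 4 genes never exceeded 0.297. In *lmo1*-/- the mean order was *scg2a*, *scg3*, *chga*, *pcsk1*, *scg2b*, *scg5*, with *scg2b* below *scg5* in replicate 2. In TATA/TATA *scg2b* ranked just below *scg3*, above *chga* and *pcsk1*, in both libraries.

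**Figure D1:**
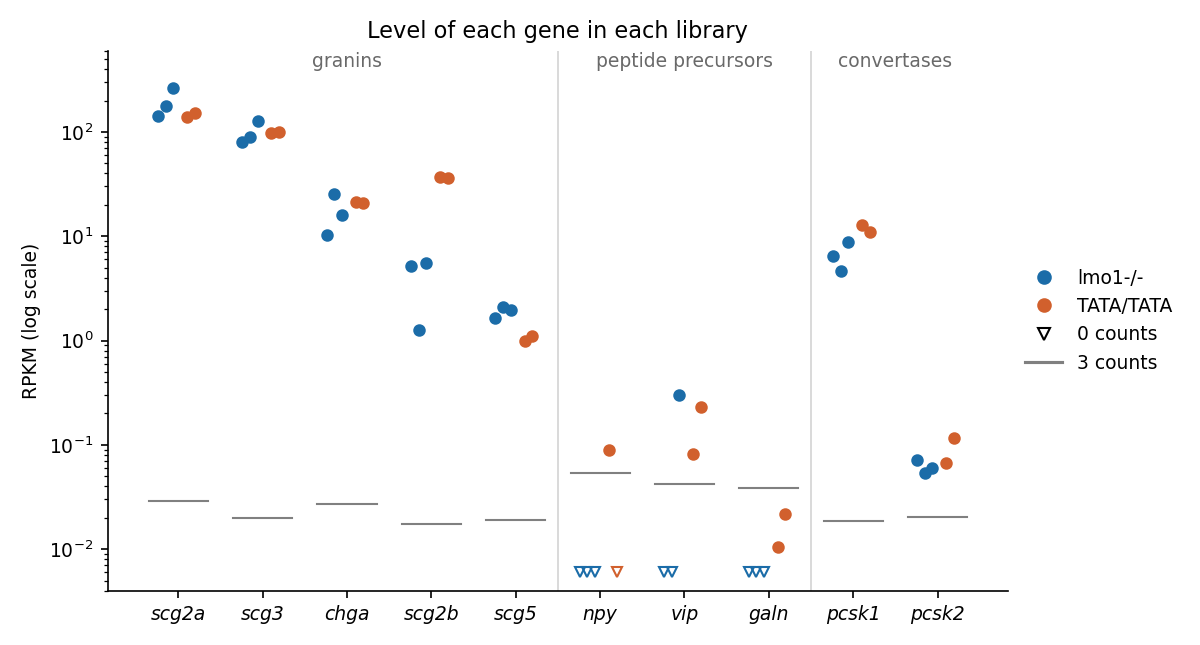
Level of each of the 10 genes in each library (RPKM, log scale), with *lmo1*-/- and TATA/TATA libraries as points in different colours and values of 0 set apart at the edge. *scg2a* and *scg3* are the highest in every library, *scg2b* separates the genotypes most widely among the genes above 1 RPKM, and *npy*, *vip*, *galn* and *pcsk2* lie at the bottom.

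Of the 10 genes, 6 passed the level filter, and of these 1 was called higher and 2 were called lower in TATA/TATA, a total of 3 of 6. Among all tested genes 19.9% were called higher and 16.7% lower, 36.6% in all, so calls in either direction were common. Every library of one genotype lay beyond every library of the other for 3 of the 6 in RPKM (*scg2b*, *scg5* and *pcsk1*) and for 5 of the 6 in TMM-scaled counts (all but *chga*), beside 68.3% and 65.3% of all tested genes. The median log2 fold change of the 6 was -0.34, beside -0.05 for all tested genes. Each gene was read from this one fit across all genes. Because the libraries are bulk RNA, fewer cells of a type and less RNA per cell cannot be told apart.

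*scg2b* encodes one of the zebrafish secretogranin II proteins, precursors of the peptide secretoneurin. It was at 5.13, 1.28 and 5.56 RPKM in the *lmo1*-/- libraries (917, 221 and 1097 counts) and at 37.4 and 36.3 RPKM in the TATA/TATA libraries (7843 and 7294 counts). Both TATA/TATA libraries were far above every *lmo1*-/- library, and among the latter replicate 2 was the low one, with a 4.36-fold range. The means were 3.99 ± 2.36 RPKM (SD, n = 3) and 36.8 ± 0.780 RPKM (SD, n = 2), which moved the gene from above 53.0% to above 90.2% of tested genes. On TMM-scaled counts the log2 fold change was 2.80 (SE 0.51, 95% interval 1.55 to 4.05, edgeR adjusted p = 0.00842). With TATA/TATA replicate 1 or replicate 2 left out the log2 fold change was 2.91 and 2.92, and the adjusted p was 0.0564 and 0.0576.

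*scg2a*, the more abundant secretogranin II gene, was at 144, 179 and 263 RPKM in *lmo1*-/- and at 138 and 152 RPKM in TATA/TATA. In RPKM the genotypes overlapped, since *lmo1*-/- replicate 1 lay between the TATA/TATA libraries. In TMM-scaled CPM, counts relative to the scaled library total, the values were 358, 504 and 580 against 248 and 278, with no overlap. The log2 fold change was -0.87 (SE 0.24, 95% interval -1.46 to -0.28, edgeR adjusted p = 0.0341), and the call was lost on the authors' own library totals (-0.43, adjusted p = 0.257). It was also lost without *lmo1*-/- replicate 2 or replicate 3 (adjusted p = 0.0794 and 0.0634) and without TATA/TATA replicate 1 or replicate 2 (adjusted p = 0.379 and 0.277).

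The balance within the pair does not depend on the scaling between libraries. *scg2a* transcripts were 28.0, 140 and 47.3 times as abundant as those of *scg2b* in the *lmo1*-/- libraries, and 3.70 and 4.20 times as abundant in the TATA/TATA libraries. The ratio of *scg2b* to *scg2a* was higher in both TATA/TATA libraries than in all *lmo1*-/- libraries, with a difference of mean log2 ratios of 3.85. The two-sided exact permutation p was 0.1, the smallest that 3 against 2 libraries allow, and 15 ratios were compared. The summed RPKM of *scg2a* and *scg2b* relative to *scg3* was 1.85, 1.99 and 2.11 against 1.80 and 1.88. The genotypes overlapped in this second ratio (exact permutation p = 0.3) and not in the first. Reads were counted by gene name, and how reads that match both copies were shared out cannot be seen in the counts.

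**Figure D2:**
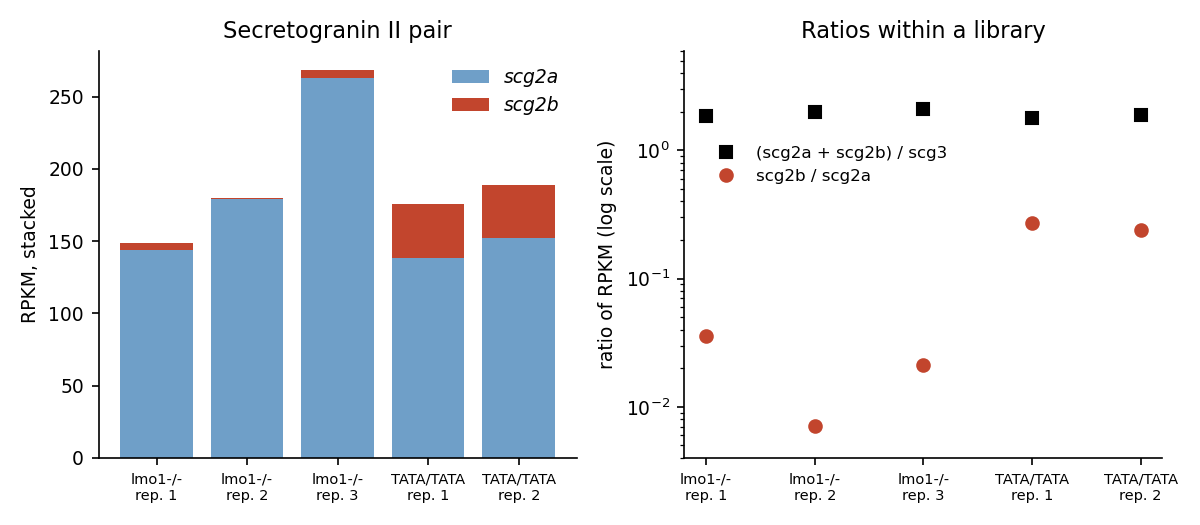
Left, RPKM of *scg2a* and *scg2b* stacked for each library. Right, the ratio of *scg2b* to *scg2a* and of their sum to *scg3* in each library on a log scale; the first is 0.00714 to 0.0357 in *lmo1*-/- and 0.238 to 0.270 in TATA/TATA, and the second is 1.80 to 2.11 throughout.

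*scg3* encodes secretogranin III, which in mammals binds other granins and the vesicle membrane during sorting. Its level was 80.4, 90.4 and 127 RPKM in *lmo1*-/- and 97.5 and 100.2 RPKM in TATA/TATA. The TATA/TATA values lay inside the *lmo1*-/- range, and the means were 99.3 ± 24.6 (SD, n = 3) and 98.9 ± 1.93 RPKM (SD, n = 2). Per TMM-scaled count the TATA/TATA libraries were lower than every *lmo1*-/- library, but the gene was not called (log2 fold change -0.45, SE 0.19, 95% interval -0.92 to 0.01, edgeR adjusted p = 0.116). Without *lmo1*-/- replicate 1 it was called lower (-0.59, adjusted p = 0.0136).

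*chga*, chromogranin A, was at 10.2, 25.6 and 16.0 RPKM in *lmo1*-/- and at 21.1 and 20.9 RPKM in TATA/TATA. The *lmo1*-/- libraries lay on both sides of the TATA/TATA pair with a 2.51-fold range. No difference was called (log2 fold change -0.22, SE 0.43, 95% interval -1.28 to 0.84, edgeR adjusted p = 0.733), and the interval is wide in both directions. The sign turned when *lmo1*-/- replicate 2 was left out (0.31).

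*scg5* encodes the protein known as 7B2, in mammals the chaperone that PCSK2 needs to mature. It was at 1.63, 2.09 and 1.97 RPKM in *lmo1*-/- (267, 333 and 357 counts) and at 0.981 and 1.12 RPKM in TATA/TATA (189 and 206 counts). Every TATA/TATA value was below every *lmo1*-/- value in RPKM and in TMM-scaled counts. The log2 fold change was -1.33 (SE 0.27, 95% interval -2.0 to -0.66, edgeR adjusted p = 0.0129), 2.51-fold lower in TATA/TATA. The adjusted p was 0.0511 on the authors' library totals, and 0.214 and 0.163 with TATA/TATA replicate 1 or replicate 2 left out.

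Across these 5 granin genes, summed RPKM was 241, 298 and 413 in *lmo1*-/- and 295 and 311 in TATA/TATA, with overlap. *scg2b* made up 2.13%, 0.428% and 1.34% of that sum in *lmo1*-/- and 12.7% and 11.7% in TATA/TATA. The share of *scg2a* was 59.6%, 60.0% and 63.6% against 46.9% and 49.0%, and that of *scg3* stayed between 30.3% and 33.4%.

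The peptide precursors were scarce. *npy*, the precursor of neuropeptide Y, had 0 counts in 4 of the 5 libraries and 6 counts, 0.0895 RPKM, in TATA/TATA replicate 1. *galn*, the galanin precursor, had 0 counts in every *lmo1*-/- library and 1 and 2 counts in TATA/TATA. For both genes a level up to 3 counts, 0.0447 to 0.0542 RPKM for *npy* and 0.0315 to 0.0382 RPKM for *galn*, could not have been told from 0 in a library without reads. No fold is given for either, and the edgeR fit of all 25459 genes with a count called neither (adjusted p = 0.279 and 0.315), nor *vip* or *pcsk2*; 25.4% of the genes in that fit were called.

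*vip*, the precursor of vasoactive intestinal peptide, had 0, 0 and 24 counts in *lmo1*-/- and 7 and 19 counts in TATA/TATA. The highest value, 0.297 RPKM, was that of *lmo1*-/- replicate 3, while the other *lmo1*-/- libraries had none. The fitted log2 fold change was 0.27 (SE 1.61, 95% interval -3.45 to 4.0, edgeR adjusted p = 0.918), so even a large difference in either direction would not have been seen.

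The prohormone convertases cut precursors at pairs of basic residues. *pcsk1* was at 6.44, 4.65 and 8.75 RPKM in *lmo1*-/- and at 12.8 and 11.0 RPKM in TATA/TATA. Both TATA/TATA libraries were above every *lmo1*-/- library, as they were for 54.2% of all tested genes in RPKM. The edgeR fit did not call it (log2 fold change 0.42, SE 0.21, 95% interval -0.09 to 0.93, adjusted p = 0.171). With limma on log2(RPKM + 1) the difference was 0.80 at adjusted p = 0.0448.

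*pcsk2* had 11, 8 and 10 counts in *lmo1*-/- and 12 and 20 counts in TATA/TATA, no more than 0.116 RPKM. The ranges adjoined without overlap in counts and overlapped in RPKM, and the fitted log2 fold change was 0.07 (SE 0.75, 95% interval -1.67 to 1.82, edgeR adjusted p = 0.958). *scg5*, whose protein is its chaperone in mammals, had many more reads than *pcsk2* in every library.

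**Figure D3:**
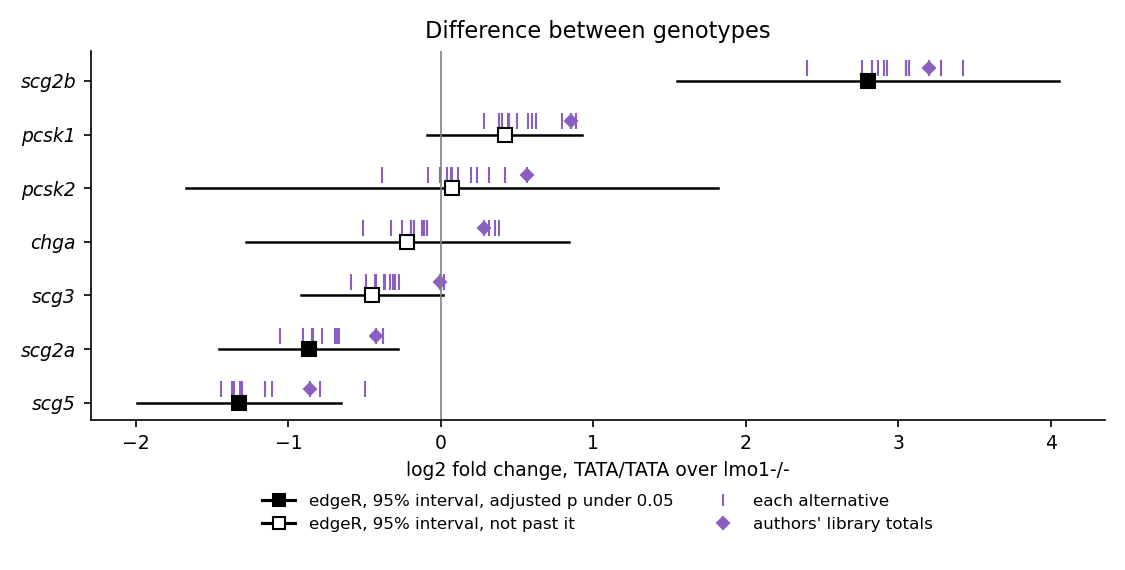
Log2 fold change, TATA/TATA over *lmo1*-/-, of the 5 granins and both convertases, with the edgeR estimate (squares, filled where adjusted p was under 0.05), its 95% interval (line) and the estimate under each alternative (ticks; diamonds for the authors' library totals). *scg2b* is above 0 and *scg2a* is below 0 under all 14 alternatives, *scg5* is below 0 under the 13 in which it could be tested, and *chga*, *scg3* and *pcsk2* cross 0.

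Relative to *scg3*, whose mean RPKM was nearly the same in both genotypes, *pcsk1* was 0.0800, 0.0515 and 0.0689 in *lmo1*-/- and 0.132 and 0.110 in TATA/TATA. The corresponding ratios for *scg5* were 0.0202, 0.0232 and 0.0155 against 0.0101 and 0.0111. These ratios separated the genotypes completely, in opposite directions (two-sided exact permutation p = 0.1 for each, the smallest possible). Such separation was common, since 68.3% of all tested genes did not overlap in RPKM itself. The share of all genes that separate relative to *scg3* was not computed. *chga* relative to *scg3* overlapped, at 0.127, 0.283 and 0.126 against 0.216 and 0.209 (exact permutation p = 0.4).

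The catecholamine enzymes *dbh* and *th* fell by 1.02 and 1.00 on the log2 scale (edgeR adjusted p = 0.00472 and 0.00868), and served as a second reference. *scg2a* per summed *dbh* and *th* RPKM was 0.125, 0.169 and 0.167 in *lmo1*-/- and 0.157 and 0.185 in TATA/TATA, with overlap (exact permutation p = 0.6). *scg3* on that reference was 0.0700, 0.0853 and 0.0808 against 0.110 and 0.122, and *scg2b* was 0.00447, 0.00120 and 0.00354 against 0.0423 and 0.0441. *pcsk1* was 0.00560, 0.00439 and 0.00557 against 0.0145 and 0.0134, and *scg5* was 0.00142, 0.00197 and 0.00125 against 0.00111 and 0.00136. Relative to these enzymes *scg2b*, *scg3* and *pcsk1* were higher in both TATA/TATA libraries (exact permutation p = 0.1 for each, the smallest possible), while *scg2a*, *scg5* and *chga* overlapped (for *scg5* and *chga*, exact permutation p = 0.4 and 0.3). Because the enzymes were themselves lower in TATA/TATA, a gene that is level in RPKM, such as *scg3*, comes out higher on this reference. The share of all genes that do so was not computed.

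By the root-mean-square difference of mean-centred log2 profiles over the 5 libraries, *dhrs4*, *npm1b* and *si:dkeyp-120h9.1* were nearest to *scg2a* (0.0266, 0.0284 and 0.0453). The nearest to *pcsk1* were *rhbdd1*, *chl1b* and *stxbp3* (0.0427, 0.0440 and 0.0448).

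Among other granin and peptide precursors, 61 of 66 listed symbols were in the files and 23 of these had no more than 3 counts in any library. Of the 11 that passed the level filter 2 were called higher and none lower (median log2 fold change -0.07). The share called was 18.2%, beside 36.6% of all tested genes. The 2 called, *ghrl* and *sst1.2*, reached 1 RPKM only in the TATA/TATA libraries, so they passed the filter through that group alone. Of those under the filter 4 were called higher and none lower, in the fit that called 25.4% of all genes with a count. *ghrl*, the ghrelin precursor, had 0 counts in every *lmo1*-/- library and 250 and 432 in the TATA/TATA libraries, at least 62.1-fold higher on the TMM scale against a floor of 3 counts per library. *sst1.2*, a somatostatin precursor, rose from a mean of 0.0580 to 1.49 RPKM (log2 fold change 4.20, SE 0.91, edgeR adjusted p = 0.0149). The more abundant *sst2* and *sst1.1*, named here after their values were seen, had means of 0.552 and 0.509 against 14.5 and 9.56 RPKM. They were not called (edgeR adjusted p = 0.0639 and 0.0991), and *lmo1*-/- replicate 1 was the highest of its genotype for both. The 4 called under the filter were *adma*, *adm2a*, *tac3a* and *cart3*. The adrenomedullin precursors *adma* and *adm2a* rose by 4.20 and 4.19 on the log2 scale (edgeR adjusted p = 0.00237 and 0.00776). The low-count *tac3a* and *cart3* were at least 5.01-fold and 4.61-fold higher (edgeR adjusted p = 0.0154 and 0.0287).

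The most abundant genes of this list were *pcsk1nl* and *nucb2a*. *pcsk1nl* encodes proSAAS, in mammals an inhibitor of PCSK1, and was at 32.2, 20.3 and 29.0 RPKM in *lmo1*-/- and 31.3 and 29.5 RPKM in TATA/TATA (log2 fold change -0.28, adjusted p = 0.289 by edgeR). *nucb2a*, the nesfatin precursor, was at 19.9, 22.4 and 30.0 against 26.6 and 28.2 RPKM (-0.26, adjusted p = 0.288). Both overlapped between genotypes.

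Of the other peptide-processing enzymes 6 of 12 were tested, with 1 called higher and 2 lower (median log2 fold change 0.13). The share called was 50%, beside 36.6% of all tested genes. *cpe*, the carboxypeptidase that trims the basic residues left by convertases, was at 20.1, 19.0 and 23.3 RPKM in *lmo1*-/- and 18.0 and 15.7 RPKM in TATA/TATA, and fell by 0.76 on the log2 scale (SE 0.15, edgeR adjusted p = 0.00972). *pam*, which amidates peptides, was at 9.12, 6.08 and 11.4 against 17.7 and 16.4 RPKM and was not called (0.51, adjusted p = 0.0897). Among convertases of the constitutive pathway, *furinb* fell by 2.63 (SE 0.37, adjusted p = 0.00346) and *pcsk7* rose by 0.65 (SE 0.17, adjusted p = 0.0305) on the log2 scale.

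Receptors for NPY, galanin and VIP were read beside their peptides. Of 16 genes 2 were tested, with 1 called higher, too few to set beside the 36.6% of all tested genes called. Of those under the level filter 1 was called higher and 2 lower, in the fit that called 25.4% of all genes with a count. *galr1a*, a galanin receptor, was at 7.68, 8.96 and 10.7 RPKM in *lmo1*-/- and 21.1 and 21.8 RPKM in TATA/TATA (log2 fold change 0.78, SE 0.18, edgeR adjusted p = 0.0178), whereas *galn* was at or under 3 counts in all 5 libraries. *npy2rl*, an NPY receptor gene, had 1, 0 and 0 counts in *lmo1*-/- and 121 and 141 in the TATA/TATA libraries, at least 23.7-fold higher (adjusted p = 0.00097). The VIP and PACAP receptor gene *vipr2* was at 0.272, 0.721 and 4.38 RPKM in *lmo1*-/-, with replicate 3 far above the others, and at 0.0599 and 0.0709 RPKM in TATA/TATA (log2 fold change -5.15, SE 1.19, adjusted p = 0.0164). *adcyap1r1a*, a PACAP receptor gene, was at 0.508, 0.819 and 0.481 against 0.124 and 0.117 RPKM (-2.85, SE 0.42, adjusted p = 0.00244). The more abundant *adcyap1r1b* was at 1.56, 0.581 and 8.06 against 0.940 and 0.846 RPKM. It overlapped between genotypes and was not called (-2.27, SE 1.01, edgeR adjusted p = 0.131).

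Of 18 dense-core vesicle proteins 14 were tested, with none called higher and 3 called lower (median log2 fold change -0.35). The share called was 21.4%, beside 36.6% of all tested genes in either direction and 16.7% lower. *slc18a2*, the vesicular monoamine transporter, was at 24.0, 16.3 and 63.0 RPKM in *lmo1*-/- and 10.7 and 10.1 RPKM in TATA/TATA (-2.12, SE 0.51, edgeR adjusted p = 0.0214). *ptprn2* and *ccdc186*, which act in vesicle formation, fell by 0.64 and 0.52 on the log2 scale in TMM-scaled counts (edgeR adjusted p = 0.0247 and 0.0368). In RPKM the genotypes overlapped for both. *ptprn2* was at 13.1, 9.94 and 11.8 against 10.7 and 9.79 RPKM, and *ccdc186* at 4.24, 3.98 and 4.84 against 4.33 and 3.99 RPKM. *cyb561*, the electron carrier of the vesicle membrane, was at 126, 138 and 180 against 191 and 172 RPKM and was not called (-0.16, adjusted p = 0.51).

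Among 9 transcriptional regulators 6 were tested, with 1 called higher and 1 lower (median log2 fold change -0.15), and 1 under the level filter was called higher. Of the tested regulators 33.3% were called, beside 36.6% of all tested genes. The fit used under the level filter called 25.4% of its genes. *insm1a*, a zinc-finger factor of neuroendocrine differentiation, was at 6.56, 3.88 and 27.0 RPKM in *lmo1*-/- and 123 and 117 RPKM in TATA/TATA (2.91, SE 0.71, edgeR adjusted p = 0.0223). The other *insm1* gene, *insm1b*, named here after its values were seen, did not follow it. It was at 0.0686, 0.00707 and 7.61 against 0.409 and 0.238 RPKM, overlapped and was not called (-3.32, SE 2.03, edgeR adjusted p = 0.276). *rest*, which in mammals represses neuronal and granin genes, was at 0.0456, 0.0396 and 0.0369 against 0.619 and 0.724 RPKM (3.54, SE 0.39, adjusted p = 0.000706). *creb1a* fell by 0.96 on the log2 scale in TMM-scaled counts (SE 0.27, edgeR adjusted p = 0.0366). It overlapped in RPKM, at 4.12, 3.25 and 6.71 against 2.97 and 3.49. *rcor1*, with *insm1a* the most abundant of this list, was at 13.8, 12.7 and 13.4 against 21.0 and 21.6 RPKM. It was not called (0.21, SE 0.15, edgeR adjusted p = 0.305).

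**Figure D4:**
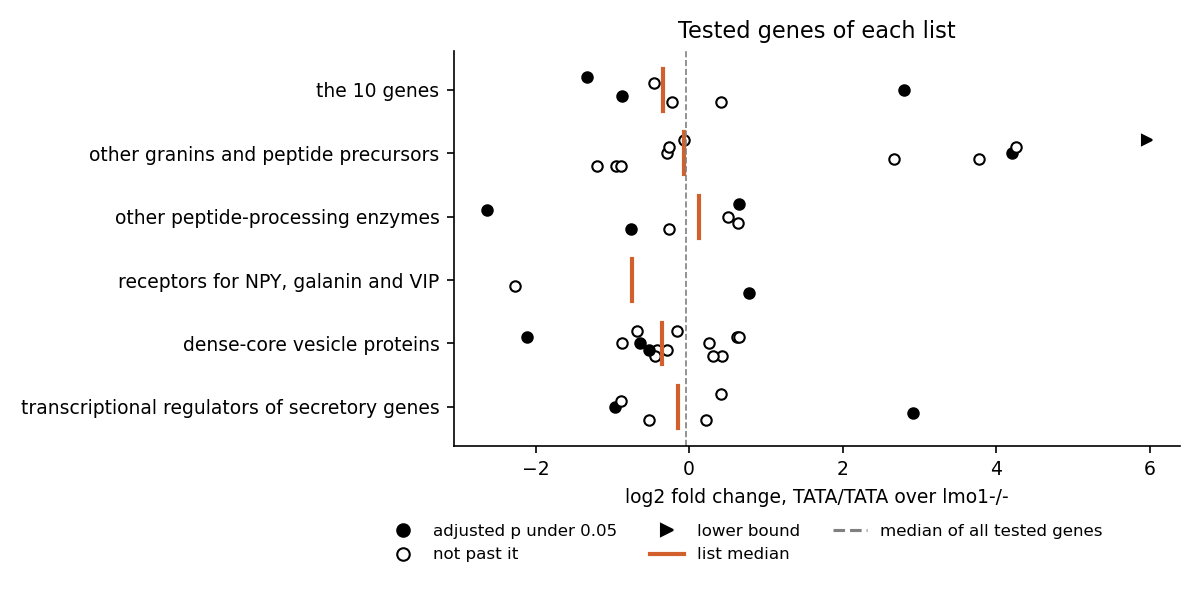
Log2 fold change, TATA/TATA over *lmo1*-/-, of the tested genes among the 10 and in each related list; filled symbols had an edgeR adjusted p under 0.05, the triangle is the lower bound for *ghrl*, bars are list medians and the dashed line is the median of all tested genes. The medians of the lists lie between -0.75 and 0.13, and *scg2b* and *insm1a* stand to the right of the other tested genes in their rows.

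Markers of other cells moved with genotype beside these results. The sympathoadrenal markers summed to 1784 to 2553 RPKM in *lmo1*-/- and 1467 to 1563 RPKM in TATA/TATA, with 16 of 17 listed symbols in the files and all 16 tested. Of these 2 were called higher (*stmn2b* and *ret*), 4 lower and 10 not. The share called was 37.5%, close to the 36.6% of all tested genes. *th*, *dbh* and *hand2* were the most abundant. The macrophage markers summed to 106 to 193 against 2829 to 2952 RPKM, with 19 of 20 called higher (95%), beside 19.9% of all tested genes called higher. Islet and gut endocrine markers, which include granin-rich cells, summed to 21.0, 0.695 and 0.905 RPKM in *lmo1*-/- and 119 and 189 RPKM in TATA/TATA, mostly *ins*, which was at 72.4 and 117 RPKM in TATA/TATA. None of the 4 tested was called, but of the 5 under the level filter *neurod1* and *arxa* were called higher (edgeR adjusted p = 0.0224 and 0.0189). The fit used under the level filter called 25.4% of its genes. *neurod1* had 0 counts in every *lmo1*-/- library and 14 and 32 in TATA/TATA, and *arxa* had 0, 1 and 0 against 20 and 33 counts.

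Pituitary markers, mostly *tshba*, summed to 1.16 to 1.82 against 8.37 to 9.16 RPKM. *tshba* was the 1 tested gene of that list and was called higher. The others were not called and did not move together. *lhb* had 6, 6 and 14 against 26 and 27 counts, whereas *pou1f1* had 9, 2 and 6 against 1 and 0. *fshb* had reads only in *lmo1*-/- replicate 1, and 4 genes had no more than 3 counts in any library. Neutrophil markers summed to 16.4 to 97.2 against 128 to 133 RPKM. Schwann cell markers, mostly *mbpb*, summed to 3.19 to 4.35 against 11.4 to 12.1 RPKM. The 2 tested, *mbpb* and *erbb3b*, were called higher, while *mpz*, under the level filter, was called lower (log2 fold change -1.21, edgeR adjusted p = 0.0458). *erbb3b* had 3, 1 and 2 counts in *lmo1*-/- and reached 1 RPKM only in the TATA/TATA libraries, so it passed the filter through that group alone. Among all tested genes 36.6% were called, and the fit used under the level filter called 25.4%. Interrenal steroidogenic markers, mostly *star*, summed lower in the TATA/TATA libraries, at 15.4 to 17.9 against 24.8 to 57.0 RPKM. *star* and, under the level filter, *mc2r* were called lower. None of the others was called, and *cyp11a1*, *cyp11c1*, *cyp17a1* and *hsd3b1* overlapped in RPKM. Erythroid markers also summed lower, at 30.1 to 32.6 against 44.2 to 53.0 RPKM, but did not move together. *hbba1* and *hbba2* were called lower, and *hbaa1* was not called and overlapped in RPKM. *gata1a*, under the level filter, was called higher (log2 fold change 3.54, edgeR adjusted p = 0.0496). Endothelial markers, at 0.334 to 0.795 against 4.29 to 4.57 RPKM, and fibroblast markers, at 0.571 to 1.19 against 3.92 to 4.11 RPKM, were low but higher in TATA/TATA. In each list the 1 tested gene (log2 fold change 3.58 and 1.38) and 1 under the level filter were called higher. No gene of either list averaged 1 RPKM in *lmo1*-/-, so the tested genes passed the filter through TATA/TATA. Markers of other neuron classes summed to 1.26 to 1.62 against 1.15 to 1.23 RPKM, so the sum of the list changed little. Its cholinergic markers *chata* and *slc18a3a* had no reads in any library. *nos1*, the 1 tested gene of that list, fell by 2.47 on the log2 scale (edgeR adjusted p = 0.0013). No gene of the list averaged 1 RPKM in TATA/TATA, so *nos1* passed the filter through the *lmo1*-/- libraries. The part of these cells in the differences of *scg2b*, *scg2a* and *scg5*, and in those of *ghrl*, *sst1.2* and *insm1a*, was not tested.

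**Figure D5:**
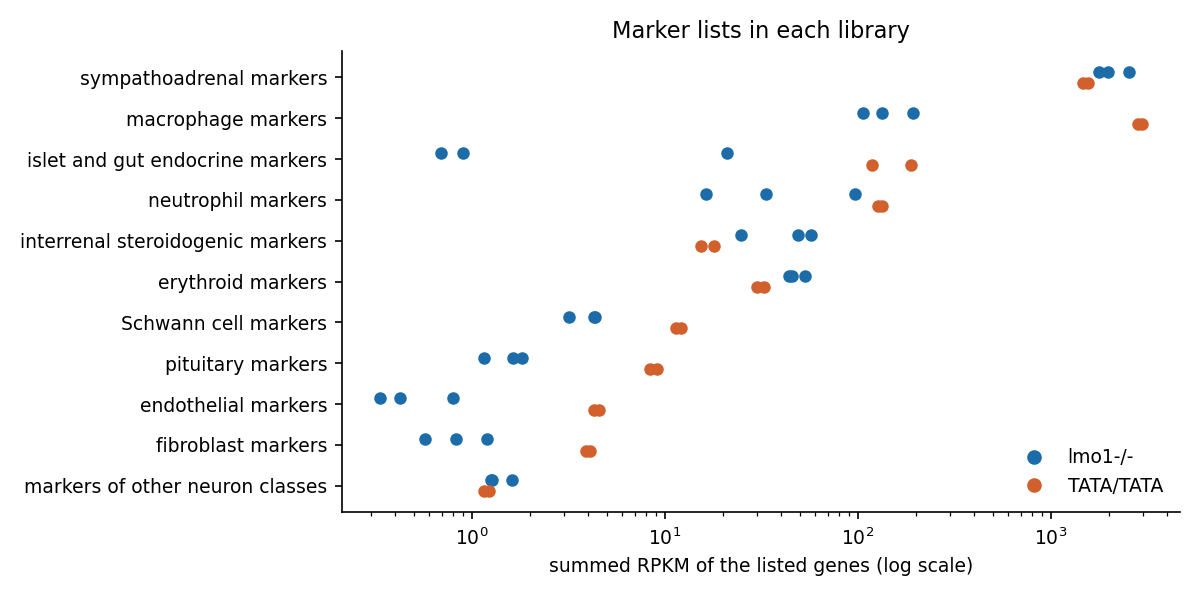
Summed RPKM (log scale) of each list of cell type markers in each library, *lmo1*-/- and TATA/TATA in different colours. Sympathoadrenal markers are at 1467 to 2553 in every library, and macrophage markers are at 106 to 193 in *lmo1*-/- and 2829 to 2952 in TATA/TATA.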

How the data were processed

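Strand-specific, ribosomal RNA-depleted libraries of sorted EGFP+ cells were sequenced. The authors aligned paired-end reads to danRer10 with HISAT2 2.1.0 and counted them by gene name with htseq-count. For every gene the authors deposited a raw count, an exon length and an RPKM value. Counts were tested for TATA/TATA against *lmo1*-/- with edgeR 4.0.16 in R 4.3.3 (TMM scaling, quasi-likelihood F-test, no covariate), and p-values were Benjamini-Hochberg adjusted. Genes were tested where 2 or more libraries reached 1 RPKM, and the others were read from a second fit, over the 25459 genes that had any count. Standard errors were derived from the F statistic. A value of 0 was given a floor of 3 counts, which covers counting error only. Bounds on folds divide the TATA/TATA mean by the highest single-library floor of *lmo1*-/-. Ratios were compared by exact permutation.

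The members and gene lists were chosen with earlier results of these data known. Named genes were all members, *lmo1*, and from each related list the 2 most abundant and up to 6 called genes with the largest fold change. Alternatives were limma 3.58.1 on log2(RPKM + 0.1) or log2(RPKM + 1), DESeq2 1.42.0, other scalings and filters, a replicate block and leaving out each library. Replicate libraries differed by more than sampling noise, but not equally. The Pearson chi-square per gene was 134, 168 and 157 for the pairs of *lmo1*-/- libraries and 11.5 for the TATA/TATA pair. The TATA/TATA libraries were thus far more alike, and whether they came from separate tumors is not stated.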

Additional observations from a re-analysis of the deposited data

How the results depend on the processing

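*scg2b* was higher under all 14 alternatives, with log2 fold changes of 2.40 to 3.42, and was called in 12. *scg5* was called lower in 10 of 13 and *scg2a* in 5 of 14. The counts of genes called higher and lower were 2678 and 2255. They were 4308 and 906 with limma on log2(RPKM + 0.1), 4581 and 941 on log2(RPKM + 1), 4006 and 869 with the authors' library totals, and 868 and 960 with a mean of at least 5 RPKM. Scaling to 16 sympathoadrenal markers, chosen after seeing the data, called 2966 and 1274. The share of calls that were higher was 54.3%, against 82.2% with the authors' totals, 82.6% with limma and 70.0% with the marker scaling, and the median log2 fold change of all genes moved from -0.05 to 0.41 with the authors' totals. Members called lower numbered 2, but 1 with either limma fit or the marker scaling and 0 with the authors' totals or a mean of at least 5 RPKM, and limma on log2(RPKM + 1) called 2 members higher.

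Leaving out a library gave 320 to 3354 genes higher and 192 to 3098 lower, and 0 to 1 members higher and 0 to 3 lower. With either TATA/TATA library left out no member was called, and the lone library was assumed to vary like the others. Signs turned for members that were not called. *chga* was at 0.38 and 0.36 with the limma fits, 0.28 with the authors' totals and -0.51 to 0.31 with a library left out. *scg3* was at 0.0215 and 0.0211 in the limma fits. With a library left out *pcsk2* spanned -0.39 to 0.42 and *vip* -0.65 to 6.40.

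Whether the replicate numbers pair the libraries could not be decided. Deviations of same-numbered libraries correlated at 0.03 and -0.01 across genes. With 2 TATA/TATA libraries the deviations of 1 mirror those of the other, so these values cannot exclude a pairing. With the replicate number as a block, 3012 genes were called higher and 2322 lower, the same 3 members were called and *pcsk2* was at -0.0827 and *vip*, not called, at 6.31.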

Other observations

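*vgf*, a granin-family precursor of neuroendocrine peptides named here after its values were seen, had 32, 12 and 1403 counts in the *lmo1*-/- libraries and 3778 and 4082 counts in the TATA/TATA libraries. *lmo1*-/- replicate 3, at 4.85 RPKM, stood apart from replicates 1 and 2 at 0.122 and 0.0473 RPKM, and both TATA/TATA libraries were higher still at 12.3 and 13.9 RPKM. The difference was not called (log2 fold change 2.66, SE 1.56, edgeR adjusted p = 0.236). *lmo1*-/- replicate 3 was also the highest of its genotype for *chgb*, chromogranin B, at 16.1 RPKM against 5.30 and 6.61, for *insm1a*, *slc18a2* and *vipr2*, and it held all *vip* reads of its genotype. The TATA/TATA libraries had 5.71 and 7.04 RPKM of *chgb*, which was not called (-0.96, adjusted p = 0.136).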
